A study of Mus musculus with 6 samples.

Results

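The cytosolic ribosomal proteins are the proteins that, with the ribosomal RNAs, make up the large and the small subunit of the ribosome in the cytoplasm. Their genes were taken by platform symbol: Rplp0 to Rplp2, Rpsa and every symbol of Rpl or Rps followed by a digit, without the ribosomal S6 kinases, Rps19bp1 and pseudogenes. Each gene was read by 1 probe set, the one with the highest mean over the 6 arrays among probe sets that carry only that symbol. This gave 48 genes of the 18193 measured, 26 of the large and 22 of the small subunit. Rps15a-ps6 was left out by its symbol. Rps4l was left out because the reference annotation types it as a transcribed pseudogene.

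Whole liver of male mice aged 18 weeks was compared between the inbred strains C57BL/KS (BKS, the control strain, titled wt) and NZO, which becomes obese and diabetic on ordinary chow. There were 3 arrays per strain, and all mice ate standard chow freely, with no transgene, drug or fast named in the labels. The labels do not say that each array holds a separate animal, so p-values may measure only the spread between these samples.

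Ribosomal proteins are made in step with one another and with ribosomal RNA, because each ribosome needs them in fixed proportions. Most of their mRNAs begin with a 5′ terminal oligopyrimidine (TOP) tract, a C followed by pyrimidines, through which the kinase complex mTORC1 and the RNA-binding protein Larp1 adjust their translation to nutrients and insulin. In liver, ribosome production is a large part of the cell's growth costs. An mRNA level says nothing of that translational step.

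The annotated start sites of the genes were searched for a TOP start and for sequences that transcription factors bind. RefSeq start sites (GRCm38.p6) were listed for 43 of the 48 genes, with 51 starts in all. A TOP start, taken as a C within 5 bases of the annotated start and followed by at least 4 pyrimidines (C or T), was present at 21 of 51 starts (41.2%), against 18.3% of all 32851 starts listed. The letters CTTCCG, on either strand in the window of 250 bases before to 50 bases after the start, were present at 60.8% of the starts of these genes and 16.9% of all starts. CTTCCG is the core to which ETS factors such as GABP bind. The letters GATGGC, on either strand, part of the sequence bound by Yy1, were found at 15.7% and 14.1%. The windows of starts of 1 gene overlap in part. These matches describe the letters only. The following 30 bases run from 10 bases before the start, 5′ to 3′ on the gene's strand, with the TOP run in capitals. They are shown for a selection of the genes named below, from those lower in NZO to Rpl3l, a paralog expressed mainly in muscle. Rpl27 and Rps28, also lower in NZO and without a TOP run, are among the genes not shown.
Rpl14: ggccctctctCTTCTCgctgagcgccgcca
Rps6: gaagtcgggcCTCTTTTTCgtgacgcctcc
Rpl27a: cgtgagctcCTCCCTTTTCCCTTTCTgcca
Rpl35: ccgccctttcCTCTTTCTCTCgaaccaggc
Rps18: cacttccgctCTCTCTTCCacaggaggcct
Rps15: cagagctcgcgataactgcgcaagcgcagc
Rpl3l: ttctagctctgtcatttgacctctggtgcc

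In GRCm38.p6 these windows lie at chr9:120571507-120571536 on the plus strand (Rpl14), chr4:86857348-86857377 on the minus strand (Rps6), chr7:109519185-109519214 on the plus strand (Rpl27a), chr2:39005112-39005141 on the minus strand (Rpl35), chr17:33955646-33955675 on the minus strand (Rps18), chr10:80292421-80292450 on the plus strand (Rps15) and chr17:24727816-24727845 on the plus strand (Rpl3l, the first of its 2 listed starts). Each covers the promoter's last 10 bases and the first 20 transcribed bases. The run of Rpl27a is 17 bases long, that of Rpl35 11 bases, those of Rps6 and Rps18 9 bases each and that of Rpl14 6 bases. Rps15 and Rpl3l had no such run at the annotated start, which says only that the letters are not in that window.

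The arrays differed in ways that touch every value below. NZO replicate 1 had a 95th percentile over all genes of 10.27 on the log2 scale, against 11.11 to 11.36 on the other 5 arrays, while the medians over all genes were 6.14 to 6.25. Of the spiked-in hybridization controls the mean was lowest in the 2 arrays whose titles carry the number 1, replicate 1 of each strain (9.29 in BKS, 8.17 in NZO), and was 10.17 to 11.52 elsewhere. The title of that NZO array, NZOm_1, is also written unlike those of the other NZO arrays. The 3′ minus 5′ signal of beta-actin, a measure of RNA or cDNA truncation, was 1.72 to 2.33 in BKS and 1.29 to 1.39 in NZO, without overlap. The 18S ribosomal RNA controls averaged 10.46 and 7.91 in BKS replicates 2 and 3 and 4.51 to 5.52 on the other arrays. Markers of hepatocytes were high in every array (8 of 10 measured, log2 of the summed level 17.06 to 17.08 in BKS and 16.10 to 17.10 in NZO, the lowest in NZO replicate 1). The part of these differences in the values below was not tested.

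Over the ribosomal protein genes the median was low in NZO replicate 1, and NZO replicates 2 and 3 lay within the BKS range. Of 48 genes 43 had a log2 fold change (NZO minus BKS) below 0, against 55.1% of all genes, and their median was -0.37, against -0.03 for all genes. The large subunit had a median of -0.39 and the small subunit one of -0.32. Rpl14 passed the test, as lower in NZO, and the other 47 did not pass in either direction. With limma and Benjamini-Hochberg adjustment, 0.742% of all genes were called at an adjusted p below 0.05, 0.418% as lower and 0.324% as higher. At an unadjusted p below 0.05, 4 ribosomal protein genes were lower and none higher, where 8.24% of all genes were lower and 3.18% higher. The share of ribosomal protein genes lower at that limit was 8.33%. A block term for the number 1 arrays (replicate 1 of each strain) was also fitted in limma. It rests on the title number alone, as the labels name no batch. With it 16 of the 48 genes were lower at the unadjusted limit and 1 was higher, where 16.9% of all genes were lower and 5.94% higher. Between the other 2 arrays of each strain 5 were lower and 2 higher, where 12.1% of all genes were lower and 8.69% higher. The share of lower genes was thus near that of all genes in the first and last of these fits and above it with the block, and the difference between shares was not tested.

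**Figure D1:**
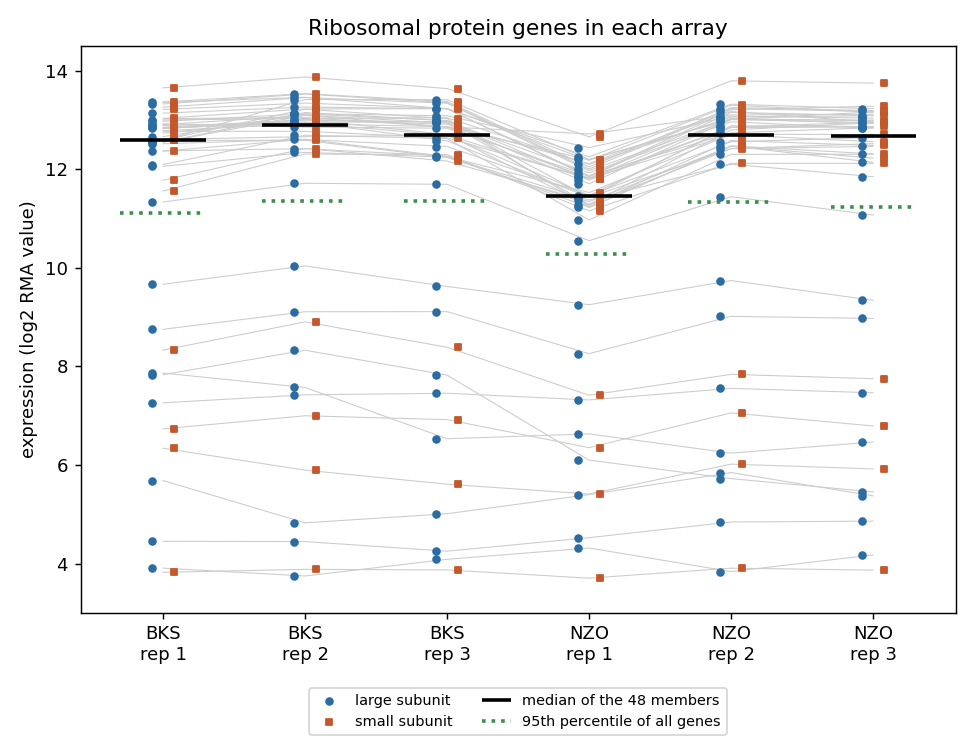
Expression (log2 RMA value) of the 48 ribosomal protein genes on each of the 6 arrays, with grey lines joining the values of a gene. Black bars give the median of the 48 genes and green dotted bars the 95th percentile of all genes; in NZO replicate 1 they stand at 11.45 and 10.27, below the other 5 arrays.

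The median over the 48 genes was 12.59, 12.89 and 12.69 in BKS replicates 1 to 3 and 11.45, 12.70 and 12.67 in NZO replicates 1 to 3. NZO replicates 2 and 3 therefore lay within the range of the BKS arrays, and NZO replicate 1 lay below all of them. By strain this median was 12.72 ± 0.15 (SD, n = 3) in BKS and 12.27 ± 0.72 in NZO. NZO replicate 1 was the lowest of the 6 arrays for 42 of the 48 genes, and for 39.8% of all genes. For the 36 genes with a mean of at least 11 it was the lowest array in all 36. Of all genes 961 had such a mean, with a median of 11.08 in NZO replicate 1 and 11.93 to 12.11 on the other arrays. NZO replicate 1 was below BKS replicate 1 for 920 of these 961 genes and for all 36. Without NZO replicate 1 the median log2 fold change of the ribosomal protein genes was -0.003, with 25 genes below 0 and 23 above, and 0.02 for all genes.

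Subsets of the arrays were also compared. Between the number 1 arrays the median difference was -0.92, with 45 of 48 genes lower in NZO, against a median of -0.12 and 63.5% of all genes lower. There 19 of the 48 genes were lower by more than 1 unit, against 7.55% of all genes. Between the other 2 arrays of each strain the median was -0.05, with 28 of 48 genes lower, against 0.004 and 49.4% of all genes. There the large subunit had a median of -0.11, with 19 of 26 genes below 0, and the small subunit one of 0.01, with 9 of 22 below 0. In that subset both NZO arrays lay below both BKS arrays for 20 of the 48 genes (41.7%), against 26.4% of all genes. Both lay above for 8 (16.7%), against 24.7% of all genes. These shares were not tested against each other. The difference was larger in size between the number 1 arrays for 43 of the 48 genes, and 17 genes were lower there and higher in the other subset. The number 1 arrays hold 1 array per strain and give no test. The part that the lower upper range of NZO replicate 1 had in these values was not tested.

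**Figure D2:**
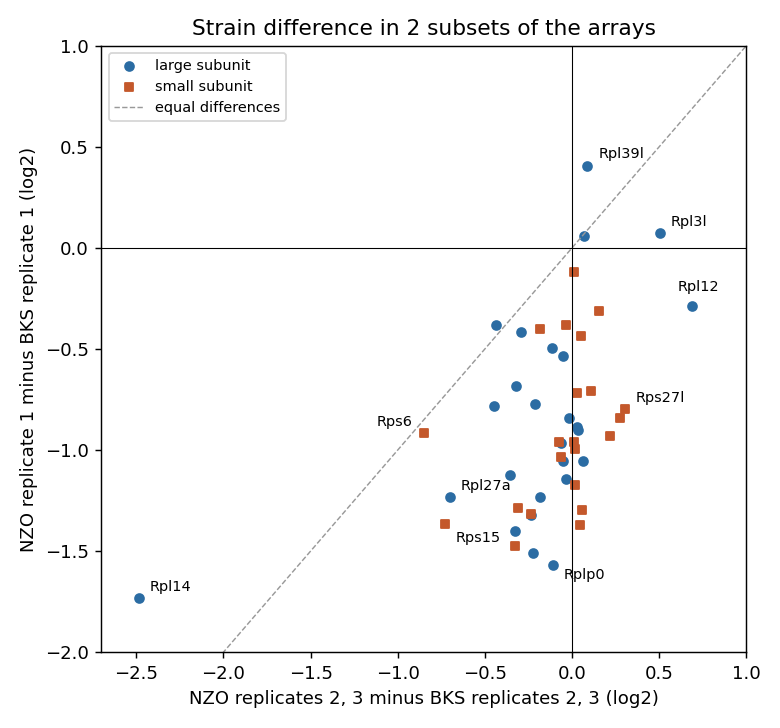
Each point is a ribosomal protein gene, with the log2 difference of NZO replicates 2 and 3 from BKS replicates 2 and 3 on the x axis and that of NZO replicate 1 from BKS replicate 1 on the y axis. Most points lie below the dashed line of equal differences near 0 on the x axis (medians -0.05 and -0.92), and Rpl14 lies apart at -2.49 and -1.73.

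Genes with high signal in general gave values of similar size. The 961 genes with a mean of at least 11 over the 6 arrays had a median log2 fold change of -0.31, with 810 below 0, against -0.39 and 35 of 36 for the ribosomal protein genes at that level. Between the number 1 arrays the medians were -0.87 and -0.98, and in the other subset -0.04 and -0.06. When the 6 columns were quantile-normalized once more, the median of the 48 genes went from -0.37 to -0.07, with 32 genes below 0, and with cyclic loess it was -0.03, with 29 below 0. With array weights, which count arrays far from the rest for less, it was -0.13, with 40 below 0. When each array was centred on its median over all genes it was -0.38, with 44 below 0. The median was thus below 0 under each of these settings, while its size changed more than 1.5 times with 3 of them.

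Rpl14, a protein of the large subunit, was the 1 gene that passed. Its probe set read 7.83, 8.33 and 7.82 in BKS replicates 1 to 3 and 6.10, 5.72 and 5.45 in NZO replicates 1 to 3. The strains did not overlap, and NZO replicate 1 was the highest of the NZO arrays, unlike for most of the other genes. The log2 fold change was -2.24 with a standard error of 0.23 (limma, adjusted p = 0.00882). The NZO values lay below the array medians of 6.14 to 6.25, and without detection calls it is not known whether they stand above background, so no fold is drawn from them. It was -2.49 between the 2 against 2 arrays (adjusted p = 0.00116) and -1.73 between the number 1 arrays. Leaving out BKS replicate 2 ended the call (-2.07, limma adjusted p = 0.0619). So did leaving out BKS replicate 3 (-2.32, limma adjusted p = 0.0568) or NZO replicate 3 (-2.08, limma adjusted p = 0.0612).

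Other probe sets that name Rpl14 gave a much smaller difference. All 5 of them also carry the symbol of the pseudogene Rpl14-ps1, and they read 10.11 to 13.06. Their log2 fold changes were -0.86 to -0.27, with the smallest adjusted p at 0.456 in a limma fit over all 45037 probe sets that was added after seeing the data, and -0.51 to -0.14 between the 2 against 2 arrays. In the same fit over all probe sets the probe set of Rpl14 alone had an adjusted p of 0.0146. The call of Rpl14 thus rests on 1 probe set, and which probe set reads the gene's main transcript was not tested. The strains overlapped in the dimmest of the 5 shared probe sets and in none of the others. In the brightest, NZO replicates 1 to 3 read 11.14, 12.60 and 12.58, against 12.71 to 13.06 in BKS.

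**Figure D3:**
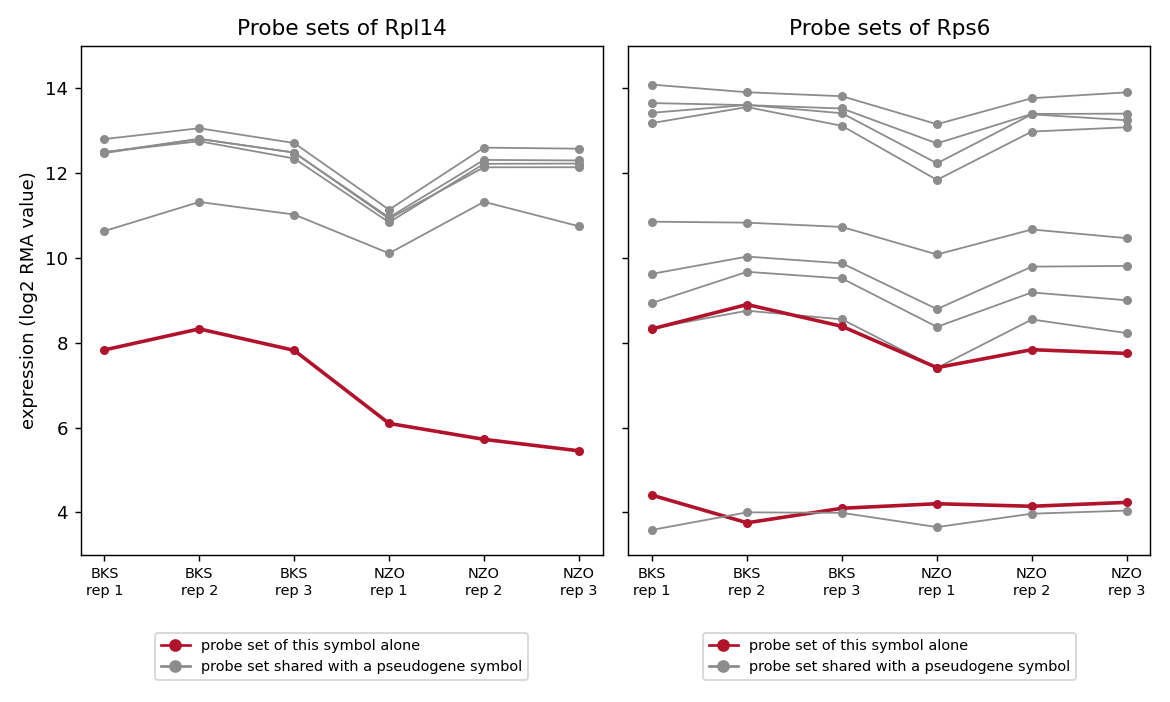
Log2 RMA values of every probe set naming Rpl14 (left) or Rps6 (right) on the 6 arrays; red lines are probe sets with that symbol alone and grey lines those that also carry a pseudogene symbol. The red line of Rpl14 drops from 7.82 to 8.33 in BKS to 5.45 to 6.10 in NZO. Its grey lines are lowest in NZO replicate 1 and rise in replicates 2 and 3, though in all but the dimmest to below the BKS values.

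Rps6, the small subunit protein that the S6 kinases phosphorylate downstream of mTORC1, had the next smallest p. It read 8.33, 8.90 and 8.39 in BKS and 7.41, 7.84 and 7.75 in NZO, without overlap. The log2 fold change was -0.87 (standard error 0.21, adjusted p = 0.162), and it was alike in the number 1 arrays (-0.91) and in the 2 against 2 arrays (-0.85, adjusted p = 0.0589). With the number 1 arrays as a block term in limma, Rps6 passed (adjusted p = 0.0218), as it did with array weights (adjusted p = 0.0282). The block takes up a shift common to that pair and leaves the log2 fold change as it was. It does not remove a shift of NZO replicate 1 alone, whose 95th percentile over all genes was 10.27, against 11.11 in BKS replicate 1. The 8 probe sets that Rps6 shares with the symbol Rps6-ps4 and that average at least 6 gave -0.65 to -0.33, and none passed (smallest adjusted p = 0.522). The second probe set of Rps6 alone averaged 4.14, near the bottom of the scale, and gave 0.11.

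Rps15, a small subunit protein needed for export of the precursor subunit from the nucleus, read 12.59, 13.22 and 13.03 in BKS and 11.22, 12.47 and 12.31 in NZO. All NZO values were below all BKS values. The log2 fold change was -0.94 (standard error 0.35, adjusted p = 0.360), and the gene passed with the block (adjusted p = 0.0186). In the 2 against 2 arrays it was -0.73 (adjusted p = 0.0506), and its second probe set gave -0.52 over the 6 arrays and -0.35 in that subset. With the block, Rpl14, Rps6 and Rps15 were the 3 ribosomal protein genes called, all lower, or 6.25% of them, where 6.55% of all genes were called, 5.04% as lower and 1.51% as higher. Between the 2 against 2 arrays Rpl14 alone was called, where 5.01% of all genes were called, 3.02% as lower and 2% as higher.

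Strains did not overlap for 9 genes that were lower in NZO, or 18.8% of the 48, against 10.9% of all genes, and for 1 that was higher, against 6.11%. Besides Rpl14, Rps6 and Rps15, the 9 were Rps20, Rpl35, Rpl13a, Rps18, Rpl38 and Rps28. Rps20, of the small subunit head, read 12.73, 13.01 and 12.70 in BKS and 11.26, 12.58 and 12.48 in NZO, with a log2 fold change of -0.71 (adjusted p = 0.509). Rpl35, which helps to hold the binding sites at the exit of the nascent chain, read 12.83, 12.96 and 12.58 in BKS and 11.43, 12.42 and 12.46 in NZO (-0.68, adjusted p = 0.442). Rps18 read 13.26, 13.45 and 13.34 in BKS but 11.97, 13.01 and 13.16 in NZO (-0.64, adjusted p = 0.506). In these 3 genes the values of NZO replicates 2 and 3 lay just below the lowest BKS value, and NZO replicate 1 lay further below. The differences between the 2 against 2 arrays were -0.33 for both Rps20 and Rpl35 and -0.31 for Rps18.

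**Figure D4:**
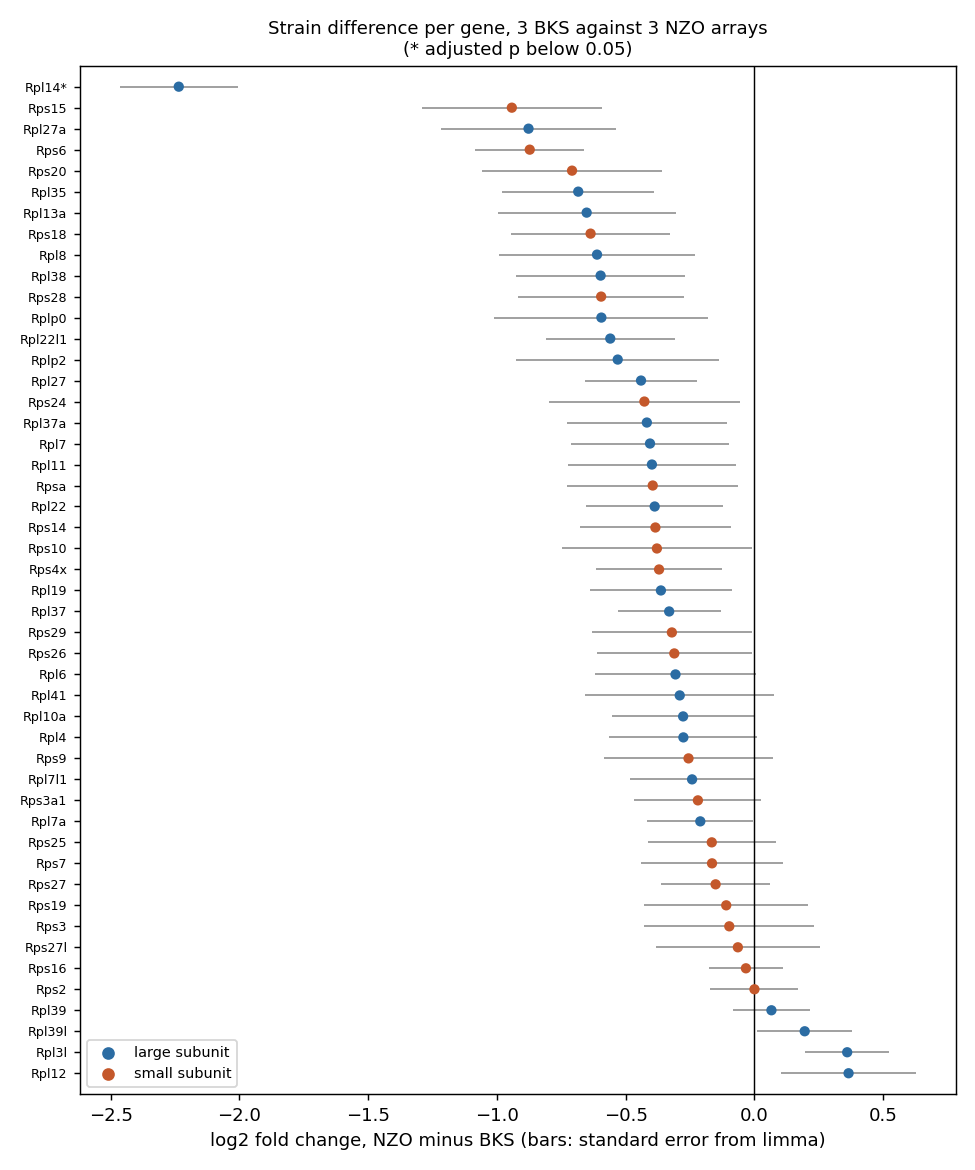
Log2 fold change (NZO minus BKS, 3 against 3 arrays) of the 48 ribosomal protein genes in order of size, with bars for the standard error from limma. Of 48 points 43 lie below 0 between -0.03 and -2.24, and Rpl14, marked with an asterisk, is the 1 gene past the test.

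The stalk of the large subunit recruits the elongation factors. Rplp0, its base, read 12.85, 13.00 and 12.95 in BKS and 11.28, 12.80 and 12.94 in NZO. Its log2 fold change of -0.59 (adjusted p = 0.657) became -0.11 between the 2 against 2 arrays, and the number 1 arrays differed by -1.57. Rplp2 was at -0.53 (adjusted p = 0.679) and at -0.18 in the 2 against 2 arrays. Rpsa, which is also known as the laminin receptor precursor, was at -0.39 (adjusted p = 0.726) and at 0.06. Rpl11, which with Rpl5 can bind and inhibit the p53 ligase Mdm2, was at -0.40 (adjusted p = 0.718) and at -0.21. None of these 4 genes passed the test.

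Rpl27, a large subunit protein, read 12.06, 12.34 and 12.24 in BKS but 11.37, 12.10 and 11.85 in NZO (-0.44, adjusted p = 0.507), and was at -0.32 in the 2 against 2 arrays. Among the small subunit proteins with a mean near the top of the scale, Rps29 (-0.32), Rps14 (-0.38) and Rps28 (-0.60) did not pass (adjusted p = 0.770, 0.692 and 0.552). Rps29 read 13.65, 13.87 and 13.63 in BKS and 12.66, 13.79 and 13.75 in NZO, so that NZO replicates 2 and 3 lay inside the BKS range. Rpl4, of the large subunit's exit tunnel, was at -0.28 (adjusted p = 0.787), and at 0.03 between the 2 against 2 arrays. Rpl38, known for its role in translating Hox mRNAs, was at -0.60 (adjusted p = 0.561) and at -0.24 in that subset. Rps2, at the mRNA entry, gave 0.0003 (adjusted p = 1). Rps2 read 12.72 in NZO replicate 1 and 13.10 and 13.11 in NZO replicates 2 and 3, against 12.86 to 13.05 in BKS.

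Several genes have a paralog that can replace or accompany the main protein. Rpl22l1, the paralog of Rpl22, read 11.33, 11.71 and 11.69 in BKS and 10.55, 11.44 and 11.07 in NZO (log2 fold change -0.56, adjusted p = 0.459), with -0.45 in the 2 against 2 arrays. Rpl22 itself was at -0.39 (adjusted p = 0.649) and at -0.05 there. Rps27l, the paralog of Rps27 that p53 switches on, read 12.60, 12.66 and 12.69 in BKS and 11.81, 13.03 and 12.93 in NZO. Its value was -0.06 over the 6 arrays and 0.30 in the 2 against 2 arrays, where both NZO values exceeded both BKS values, as for 24.7% of all genes (adjusted p = 0.328). Rps27 was at -0.15 and at -0.04, from a probe set with a mean of 6.81. A brighter probe set that it shares with Rps27rt (mean 12.29) gave -0.75 and -0.19. That probe set was not called over the 6 arrays (limma over all probe sets, adjusted p = 0.662). Rpl7l1 was at -0.24 (adjusted p = 0.777) and Rpl7 at -0.41 (adjusted p = 0.689).

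The muscle paralog Rpl3l was the 1 gene with all NZO values above all BKS values. It read 4.45, 4.45 and 4.25 in BKS and 4.52, 4.84 and 4.86 in NZO, with a log2 fold change of 0.36 (standard error 0.16, adjusted p = 0.468). Rpl39l, a paralog best known from testis, read 3.75 to 4.09 in BKS and 3.84 to 4.31 in NZO (0.20, adjusted p = 0.762), while Rpl39 was at 0.07 (adjusted p = 0.920). The probe set of Rpl39 averaged 7.41, and a brighter one that Rpl39 shares with Gm32211 (mean 13.71) gave -0.44. That shared probe set was not called (limma over all probe sets, adjusted p = 0.714). Both Rpl3l and Rpl39l lay below the array medians, near the bottom of the scale, which leaves little signal to compare.

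Low values of other genes come from the choice of probe set. In all, 5 of the 48 genes averaged below 6: Rps16, Rpl39l, Rpl3l, Rpl12 and Rps25. Rps16 read 3.70 to 3.91 on the 6 arrays, yet 2 probe sets that it shares with Rps16-ps2 read 11.64 to 14.16, with log2 fold changes of -0.53 and -0.30. Rpl12, of the stalk base, was at 0.37 (adjusted p = 0.664) with a mean of 5.36, and its 2 shared probe sets gave -0.42 and -0.13. Rps25, at -0.17, had a shared probe set that read 9.69 in BKS replicate 1 and 11.68 to 13.03 on the other 5 arrays. Rpl27a, of the large subunit, read 7.86, 7.57 and 6.53 in BKS and 6.63, 6.24 and 6.47 in NZO (-0.88, adjusted p = 0.383), and its shared probe set gave -0.38.

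The 48 genes had 104 probe sets of their own, of which 91 had a log2 fold change below 0 and 1, that of Rpl14, was called over the 45037 probe sets. Of all 45037 probe sets 105 were called lower and 86 higher, and 55.1% of all genes were below 0. In 8 genes the probe sets differed in sign: Rpl27a, Rpl35, Rpl7l1, Rps27l, Rps3, Rps4x, Rps6 and Rpsa. With probe sets of a mean of at least 6 these were 3, namely Rpl7l1, Rps27l and Rps3, of 20 genes with more than 1 such probe set. For Rps3, at the mRNA entry, the 3 probe sets gave -0.10, -0.52 and 0.33. For Rps4x, the X-linked small subunit protein, the main probe set gave -0.37 (adjusted p = 0.636) and a dim one 0.08. A further 25 ribosomal protein genes had only probe sets that they share with symbols outside the group, as Rpl13 does with Rpl13-ps6. With the brightest of these probe sets per gene, all 25 were below 0, from -0.70 (Rpl23) to -0.06 (Rpl34), with a median of -0.44, and none was called over all probe sets. Of all genes with a mean of at least 11, 810 of 961 were below 0 (median -0.31). Between the 2 against 2 arrays the median over these 25 was -0.12, with 18 below 0 and none called. There 531 of the 961 genes were below 0 (median -0.04).

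Over all 74 shared probe sets of these 25 genes, 68 were below 0 over the 6 arrays and none was called. Over the same arrays 55.1% of all genes were below 0, and 810 of the 961 genes with a mean of at least 11. In the 2 against 2 fit over genes 49.4% of all genes were below 0 and 3.02% were called lower. The share of all probe sets called in that subset is not given here. Between the 2 against 2 arrays 58 of the 74 were below 0 and 2 were called lower. One names Rpl17, a large subunit protein, and gave -2.05 (limma, adjusted p = 0.00543). It read 6.73, 7.84 and 7.51 in BKS but 5.44, 5.44 and 5.8 in NZO, while the brightest probe set of Rpl17 gave 0.04 in that subset. The other names Rpl26, also of the large subunit, and gave -0.85 (limma, adjusted p = 0.0411), against -0.23 for the brightest probe set of Rpl26. A probe set that Rpl32 shares with Rpl32l gave 0.02 over the 6 arrays and 0.38 in the 2 against 2 arrays. The 2 probe sets that name both Rpl36a and Rpl36al gave -0.55 and -0.40. None of these last 3 was called.

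The 20 genes with a TOP start had a median log2 fold change of -0.40, from -2.24 to 0.37, and the 23 with none in the window had one of -0.29, from -0.94 to 0.36. This is a description of ranges that overlap, and it was not tested. As most of these mRNAs begin with a TOP tract, the 23 may include some that the search of annotated starts missed. The split therefore does not cleanly separate mRNAs with and without a TOP tract.

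Genes that build and regulate the ribosome were followed in 8 lists, and no member of any list passed the test over the 6 arrays. The counts below 0 stand beside 55.1% of all genes. Among genes with a mean of at least 6, 6584 of 9622 were below 0 (median -0.20, and -0.09 between the 2 against 2 arrays). With a mean of at least 11 these were 810 of 961 (median -0.31, and -0.04). The lists were not tested against these genes. With the block 5.04% of all genes were called lower and 1.51% higher, and between the 2 against 2 arrays 3.02% and 2%. List genes called in either of these fits are all named below, and each call stands beside those shares. Of 17 measured genes of elongation and other TOP mRNAs, 16 were below 0 (median -0.34, and -0.08 between the 2 against 2 arrays). Eef1d, of the exchange factor of elongation factor 1, averaged 11.11 in BKS and 10.11 in NZO (adjusted p = 0.446) and was called lower with the block (adjusted p = 0.0161). It was also called in the 2 against 2 arrays (-0.77, adjusted p = 0.0412). Eif4b, a helper of the initiation helicase, had a log2 fold change of -0.63 (adjusted p = 0.274) and was called lower with the block (adjusted p = 0.0342) but not in the 2 against 2 arrays (adjusted p = 0.0917), and Eif3e at -0.81 (adjusted p = 0.301). Of 23 initiation factors 21 were below 0 (median -0.31, and -0.19), with Eif3c at -0.79 (adjusted p = 0.265), Eif3i at -0.61 (adjusted p = 0.389) and Eif4a1 at -0.70 (adjusted p = 0.403). With the block Eif4h was the 1 initiation factor called (-0.72, adjusted p = 0.0440), and it was not called in the 2 against 2 arrays (adjusted p = 0.130). Fau, which encodes Rps30 as a fusion, was at -0.39 (adjusted p = 0.773).

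Ribosomal proteins are joined to ribosomal RNA in the nucleolus with the help of assembly factors. Of 56 assembly factors 46 were below 0 (median -0.22, and -0.17 between the 2 against 2 arrays). With the block 2 of the 56 were called lower and 0 higher, where 5.04% and 1.51% of all genes were. In the 2 against 2 arrays 1 was called higher and 0 lower, where 2% and 3.02% of all genes were. Mphosph10 and Imp3, of the small subunit processome, were at -0.66 and -0.61, and both passed with the block (adjusted p = 0.0405 and 0.0413, against 0.169 and 0.439 without it). Neither was called in the 2 against 2 arrays (adjusted p = 0.114 and 0.0735). Heatr1 was at -0.72 (adjusted p = 0.200) and Tsr1 at -0.95 (adjusted p = 0.217). The nucleolar Nop58 was at 0.20 over the 6 arrays and was called higher in the 2 against 2 arrays (0.91, adjusted p = 0.0422). Of 18 genes of RNA polymerase I transcription 16 were below 0 (median -0.23, and -0.18), and none was called in any of these 3 fits. Among them Polr1c was at -0.67 (adjusted p = 0.364), Ttf1 at -0.56 (adjusted p = 0.471) and Taf1a at 0.42 (adjusted p = 0.364).

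In the control of TOP mRNAs by mTORC1, 20 of 26 measured genes were below 0 (median -0.22, and -0.22 between the 2 against 2 arrays). With the block 2 of the 26 were called lower and 1 higher, where 5.04% and 1.51% of all genes were. In the 2 against 2 arrays 1 was called higher and 0 lower, where 2% and 3.02% of all genes were. Ddit4, a stress-induced inhibitor of mTORC1, read 7.29, 6.93 and 7.11 in BKS and 7.89, 8.07 and 8.96 in NZO. All NZO values were above all BKS values, with a log2 fold change of 1.19 (standard error 0.29, adjusted p = 0.158). It was called higher with the block (adjusted p = 0.0347) and in the 2 against 2 arrays (1.49, adjusted p = 0.0262). The translational repressors Eif4ebp1 and Eif4ebp2 were at -0.86 and -0.92 (adjusted p = 0.396 and 0.351), and both were called lower with the block (adjusted p = 0.0259 and 0.0429). In the 2 against 2 arrays neither was (adjusted p = 0.0668 and 0.0904). Rragd, a nutrient-sensing GTPase, was at -0.60 from a level below the array medians (adjusted p = 0.192). Larp1 was at -0.55 (adjusted p = 0.539) and at -0.20 in the 2 against 2 arrays, and Mtor was at 0.03 (adjusted p = 0.977).

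Among 11 transcription factors known at ribosomal protein promoters, 8 were below 0 (median -0.18, and -0.10). Myc, which drives ribosome production, read 6.40, 7.30 and 7.11 in BKS and 5.94, 6.44 and 6.23 in NZO. Its log2 fold change was -0.73 (adjusted p = 0.348), and it was called lower with the block (adjusted p = 0.0323) and in the 2 against 2 arrays (-0.87, adjusted p = 0.0322). Yy1 was at -0.54 (adjusted p = 0.483) and Gabpb2 at -0.28 (adjusted p = 0.612). Of 11 genes of ribosome rescue 9 were below 0 (median -0.23, and -0.22). Nemf, which recognises stalled large subunits, was at -1.10 (standard error 0.25, adjusted p = 0.131), from 9.25 to 8.15, and passed with the block (adjusted p = 0.0249) but not in the 2 against 2 arrays (adjusted p = 0.0785). Serbp1, which binds idle ribosomes, was at -0.60 (adjusted p = 0.389) and Pelo at -0.27 (adjusted p = 0.570).

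**Figure D5:**
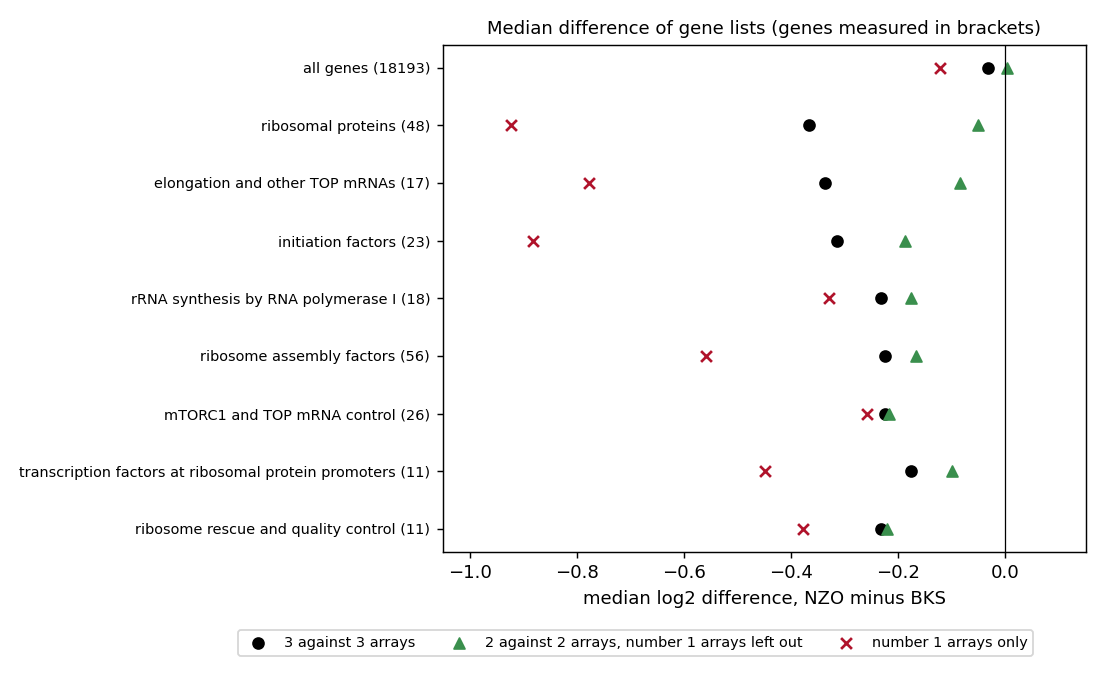
Median log2 difference (NZO minus BKS) of all genes, the ribosomal protein genes and the related gene lists with more than 1 measured gene, over 3 against 3 arrays (circles), 2 against 2 arrays (triangles) and the number 1 arrays alone (crosses). For the ribosomal proteins these are -0.37, -0.05 and -0.92, whereas for mTORC1 control they are -0.22, -0.22 and -0.26.

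No marker of another liver cell type was called over the 6 arrays. Of 10 markers of sinusoidal endothelial cells none was below 0 (median 0.42), and 3 were called higher with the block, where 1.51% of all genes were, and 3 in the 2 against 2 arrays, where 2% were, with a log2 summed level of 10.37 to 10.86 in BKS and 10.80 to 11.58 in NZO. In the 2 against 2 arrays 3 of 10 Kupffer cell, 3 of 10 stellate cell, 2 of 8 hepatocyte and 1 of 4 adipocyte markers passed the test as higher, against the same 2% of all genes. For Kupffer cells the summed levels overlapped, at 11.43 to 12.39 in BKS and 11.35 to 12.28 in NZO, and for stellate cells at 11.32 to 12.21 and 11.25 to 11.99. None of the markers of cholangiocytes, lymphocytes, erythroid cells and neutrophils was called in any of these fits. The summed levels of these types overlapped between the strains. That of cholangiocytes (5 of 8 markers measured, 3 with a mean below 6) was 8.30 to 8.55 in BKS and 8.38 to 10.02 in NZO. Its highest value was that of NZO replicate 1. Fewer cells of a type and less RNA per cell cannot be told apart in whole liver, and the part of these cells in the values of ribosomal protein genes was not tested.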

How the data were processed

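The values are the authors' log2 expression per probe set of a 3′ microarray (45101 probe sets), deposited after RMA. The submitters' processing notes name Affymetrix Expression Console for it. RMA subtracts background, gives the arrays normalized together the same probe distribution and combines probes into probe sets. The deposited probe set values still differed in their upper range. Their 95th percentile was 9.66 in NZO replicate 1 and 10.33 to 10.69 on the other arrays, and the cause was not tested. Versions, and whether other arrays were normalized with these 6, are not given in the sources used here. No detection calls were used, and the number of arrays limits the precision.

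The platform annotation gave 34945 probe sets 1 symbol and 932 several. Without the 64 control probe sets, 18193 genes remained. BKS and NZO were compared by strain label in limma 3.58.1 (R 4.3.3; lmFit, then eBayes; two-sided; Benjamini-Hochberg over all genes; threshold 0.05), by code tested on simulated data. Replicate numbers are names in accession order. Members, lists and rules were chosen with earlier results of these data known. Of 256 listed genes 230 were measured. Named genes are all past the test, the 10 smallest p, the 3 highest and 3 lowest fold changes, the 5 highest and 3 lowest levels, paralog pairs, genes with probe sets of opposite sign and up to 3 genes per related list. Rpl13a, Rplp0, Rplp2, Rpl11, Rps2, Rps25, Rpl17, Rpl26, Rpl32, Rpl36a, Larp1, Mtor and list genes called in other fits were named after their values were seen. The values of Rps4l were also added after they were seen. Alternatives changed normalization, the filter on dim genes, probe set choice, variance model, array weights and arrays. Sequences are from RefSeq. Plots were made in matplotlib 3.10.9 (Python 3.11.15).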

Additional observations from a re-analysis of the deposited data

How the results depend on the processing

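Over 16 alternatives the median log2 fold change of the 48 ribosomal protein genes was below 0, from -0.529 without NZO replicate 2 to -0.003 without NZO replicate 1. The number of all genes past the limma test was 135, and it was 436 after repeated quantile normalization, 429 with cyclic loess, 217 after centring, 281 with trend and robust variances, 1298 with array weights, 1192 with the number 1 arrays as a block and 912 in the 2 against 2 arrays. With 1 array left out it was 27 (BKS replicate 2) to 258 (NZO replicate 1). Of the ribosomal protein genes 1 passed, 2 did with array weights, 3 with the block, and 0 to 1 with 1 array left out. The causes were not tested.

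Of the values of the 27 named ribosomal protein genes over these alternatives 398 kept direction and side of the threshold, 3 became weaker, 3 stronger and 24 changed sign. Rpl35 was at 0.13 with plain probe sets first. After repeated quantile normalization Rpl4 was at 0.022, Rps27l at 0.25 and Rps3 at 0.20. With cyclic loess Rpl4 was at 0.10, Rps27l at 0.30, Rps29 at 0.064 and Rps3 at 0.26, and with array weights Rps27l was at 0.20 and Rps3 at 0.18. In the 2 against 2 arrays Rpl4 was at 0.029, Rps16 at 0.010, Rps27l at 0.30, Rps29 at 0.016, Rps3 at 0.27 and Rpsa at 0.057. With 1 array left out, the lowest and highest values were those without NZO replicates 2 and 1: -0.47 and 0.065 for Rpl4, -0.38 and 0.0032 for Rpl7l1, -0.073 and 0.028 for Rps16, -0.31 and 0.040 for Rps27, -0.28 and 0.33 for Rps27l, -0.52 and 0.050 for Rps29, and -0.30 and 0.30 for Rps3, which was also above 0 without BKS replicate 2. None of these values passed the test in either direction. Adjusting over all probe sets, chosen after seeing the data, moved no named gene across the threshold.

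No paired analysis was possible because the strains share only the title number 1. Values near the bottom of the scale (Rps16, Rpl39l, Rpl3l, Rpl12) leave little signal over background to compare.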
